A study of Mus musculus with 10 samples.

Results

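Transcripts of 10 members of the Bcl2 family, the regulators of the mitochondrial pathway of apoptosis, were measured by RNA sequencing in 10 mouse embryonic stem cell (ESC) lines. The members were chosen by name: Bcl2, Bcl2l1 and Mcl1, which oppose apoptosis; Bax and Bak1, which carry it out; and Bcl2l11, Bbc3, Pmaip1, Bid and Bad, which trigger it. Each matched 1 row, so the family made up 10 of the 20206 genes in the table. The lines were wild-type, male by their label and on the C57Bl/6 background, and were derived on feeder cells from blastocysts. Their mothers, 7 to 9 weeks of age, were fed after mating until embryonic day 3.5 either a low protein diet with 9% casein (LPD) or an isocaloric normal protein diet with 18% casein (NPD). The study took each line from a different mother and harvested RNA from fibroblast-free cultures. There were 5 lines per diet, LPD lines 1, 4, 6, 20 and 40 and NPD lines 8, 15, 21, 36 and 51, and each line was 1 replicate. No line had been treated with an agent, so the levels are those of untreated cultures, which the study called undifferentiated, of lines whose mothers differed in diet. The study also measured dead and apoptotic cells and blotted the proteins of Bbc3 (PUMA) and Bcl2l11 (BimEL) in its lines, and the question here was whether the transcripts of the family differed between the diets. Cell survival and protein amounts were not analysed here.

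Proteins of the Bcl2 family meet at the outer mitochondrial membrane. The effectors BAX and BAK form pores there, through which cytochrome c leaves and starts the caspases, the proteases that take the cell apart. BCL2, BCL-XL (from Bcl2l1) and MCL1 bind the effectors and hold them back, and the BH3-only proteins BIM (Bcl2l11), PUMA (Bbc3), NOXA (Pmaip1), BID and BAD occupy the anti-apoptotic proteins or, for some, engage the effectors directly. Pluripotent stem cells are known to stand close to the threshold for apoptosis. Much of the family is also controlled after transcription, as with MCL1, which is turned over quickly, BID, which is cut by a caspase, and BAD, which is held by phosphorylation.

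The feature that joins the members is the BH3 helix, in whose core a leucine is followed by any 3 residues, then by glycine, alanine or serine, and then by aspartate. The coding windows around this core are shown because this short stretch takes part in the binding between members. Each window has 45 bases of GRCm38 in the GENCODE M21 principal transcript, written 5′ to 3′ on the coding strand, with the 6 codons of the core in capitals. The search for the core found 1 match in each of 9 members.

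Bcl2 (chr1:106712569-106712613, minus strand, exon 1 of 2): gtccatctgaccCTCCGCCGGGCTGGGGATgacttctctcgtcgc
Bcl2l1 (chr2:152829691-152829735, minus strand, exon 2 of 3): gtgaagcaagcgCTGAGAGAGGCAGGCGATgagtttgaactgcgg
Mcl1 (chr3:95659424-95659468, plus strand, exon 1 of 3): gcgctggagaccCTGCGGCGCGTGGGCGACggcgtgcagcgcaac
Bax (chr7:45465991-45466035, minus strand, exon 3 of 6): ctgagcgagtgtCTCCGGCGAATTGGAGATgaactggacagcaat
Bak1 (chr17:27022525-27022569, minus strand, exon 4 of 6): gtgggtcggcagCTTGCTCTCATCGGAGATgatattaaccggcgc
Bcl2l11 (chr2:128147138-128147182, plus strand, exon 3 of 4): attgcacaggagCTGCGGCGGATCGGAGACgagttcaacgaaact
Bbc3 (chr7:16313761-16313805, plus strand, exon 3 of 4): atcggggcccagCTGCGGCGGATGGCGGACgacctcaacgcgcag
Bid (chr6:120897283-120897327, minus strand, exon 4 of 6): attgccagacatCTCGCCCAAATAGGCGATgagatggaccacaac
Bad (chr19:6950780-6950824, plus strand, exon 3 of 4): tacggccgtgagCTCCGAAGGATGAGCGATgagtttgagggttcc

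The fifth codon of the core encodes glycine in 7 of these windows, alanine in Bbc3 and serine in Bad. Over the 18 bases of the core, Bcl2l11 and Bbc3 were the most alike of the pairs, with 83.3% identical bases, and Bcl2l1 and Bak1 the least, with 38.9%. Pmaip1 is named only. The windows are genome sequence and not read from these lines.

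The values are normalized estimated counts per gene, called normalized counts below. The relative depth of the lines, estimated from the step between low values, was 20420517 to 23167911 read equivalents in the NPD lines and 5840572 to 24111814 in the LPD lines. LPD line 4 was the shallowest, and LPD lines 6 and 40 were also shallower, at 12348168 and 11248926. All 8 markers of pluripotent cells were present in each line, with Pou5f1 at 18250 to 30420 normalized counts, Nanog at 5141 to 11571 and Sox2 at 7481 to 10969. In 2 lines the Y-linked gene Ddx3y went against the male label, with 174 normalized counts in LPD line 4 and 7.70 in NPD line 15 against 1110 to 1493 in the other lines. The summed level of 10 fibroblast markers ranged from 377 to 3515 in LPD lines and from 472 to 6107 in NPD lines, highest in NPD line 15, and Lum was at 0 in 7 lines. The summed level of 7 primitive endoderm markers ranged from 645 to 4312 in LPD lines and from 448 to 4941 in NPD lines, and that of 6 trophectoderm markers from 1559 to 8682 and from 1251 to 2690, with LPD line 6 the highest. The part of these other cell types in the levels below was not tested. In a culture, fewer cells of a type and less RNA per cell cannot be told apart.

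Members were compared with each other per kilobase of the principal transcript, since a longer transcript gives more reads. Bax was the most abundant member in every line, at 6609 ± 719 normalized counts per kilobase (SD, n = 10 lines). Mcl1 came next at 2483 ± 217, and Pmaip1 followed at 967 ± 127. Each stood above the member after it in 10 of 10 lines, and the range of Bax did not meet that of Mcl1, nor the range of Mcl1 that of Pmaip1. An effector, an anti-apoptotic member and a BH3-only member thus led the order.

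Bak1 at 676 ± 74.5 and Bbc3 at 518 ± 137 per kilobase were neighbours that did not differ beyond their spread, Bak1 being above Bbc3 in 6 of 10 lines. Bcl2l1 followed at 366 ± 99.8, below Bbc3 in 9 lines, and Bid at 266 ± 19.2, below Bcl2l1 in 9 lines. Bcl2l11 at 149 ± 44.1 and Bad at 146 ± 24.9 could not be ordered, with Bcl2l11 above Bad in 5 of 10 lines. Bcl2 was the lowest member at 1.79 ± 0.90 per kilobase, below Bad in every line and with no overlap of ranges. The order of the 10 members was the same when the merged exon length of the gene was used, although Bax then came to 3636 ± 396.

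**Figure D1:**
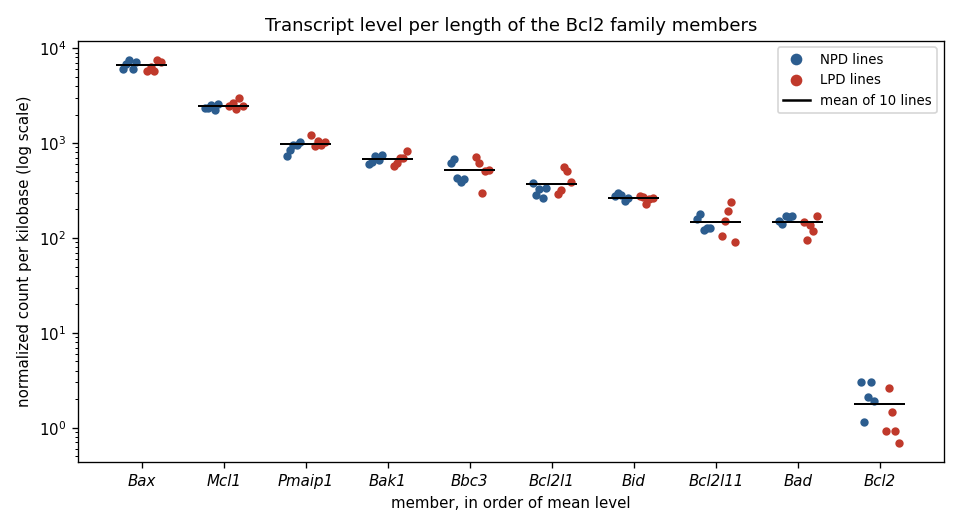
Normalized count per kilobase of principal transcript (log axis) for the 10 members in order of their mean; each point is 1 ESC line (blue NPD, red LPD) and the black bar is the mean of 10 lines. Bax lies at 5678 or more in every line, while Bcl2 lies between 0.69 and 3.07, far below Bad, the member next to it.

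Of the summed level per kilobase of the 3 anti-apoptotic members, Mcl1 held 87.2% ± 2.89, Bcl2l1 12.8% ± 2.90 and Bcl2 0.064% ± 0.035 (SD, n = 10 lines). Pmaip1 held 47.3% ± 5.41 of the summed level of the 5 BH3-only members and Bbc3 25.1% ± 5.54. Bid held 13.0% ± 1.00, Bcl2l11 7.34% ± 2.24 and Bad 7.18% ± 1.45.

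No member of the family passed the test between LPD and NPD lines. Of the 10 members, 0 reached an unadjusted p under 0.05 by limma or by the exact permutation test, and in 0 did the lines of the diets separate without overlap. Over all 14354 genes tested, 5.02% reached an unadjusted p under 0.05 by limma, 2.84% being higher and 2.18% lower in LPD, and 1.02% had diets that did not overlap. At an adjusted p under 0.1, 0.0% of all genes were called. The adjusted p by limma with Benjamini-Hochberg adjustment was at least 0.994 for each member. The median log2 fold change of the members was 0.024, beside 0.0020 over all genes tested. Markers of fibroblasts, primitive endoderm and trophectoderm mostly lay to one side between the diets. Of 8 tested fibroblast markers 7 had a log2 fold change below 0 (median -0.87), and of 7 primitive endoderm markers 7 had one above 0 (median 0.34). Of 5 tested trophectoderm markers 4 had one above 0 (median 0.21), beside 7247 of all 14354 genes tested. Of these markers 0 reached an unadjusted p under 0.05 by limma, and their part in the values of the members was not tested.

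**Figure D2:**
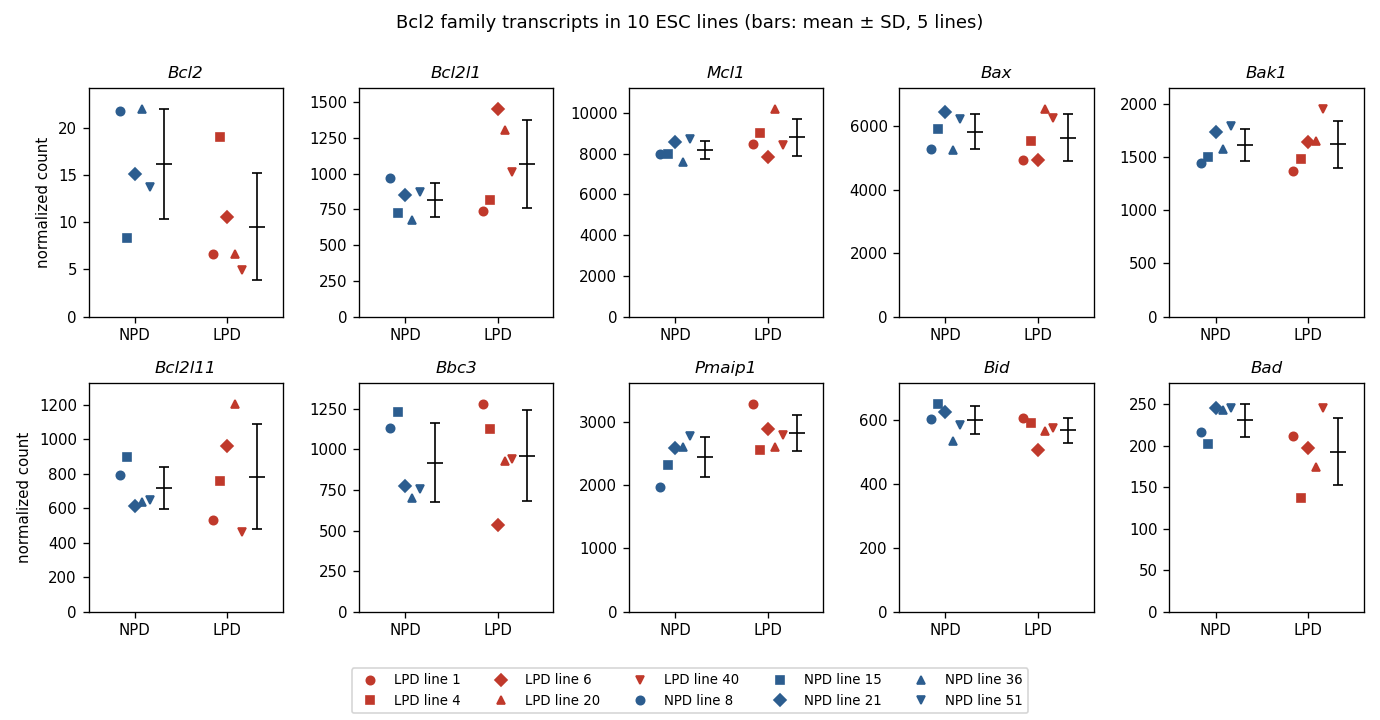
Normalized count of each member (linear axes from 0) in the 5 NPD lines (blue) and 5 LPD lines (red); each symbol shape is 1 line and the bars are the mean ± SD of 5 lines. The points of the diets overlap in all 10 panels; those of Bcl2, Bcl2l1, Pmaip1 and Bad are offset, with 3 LPD lines outside the NPD range.

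Bcl2, the founding anti-apoptotic member, was near the limit of detection. Its normalized counts were 6.59, 19.0, 10.6, 6.60 and 4.96 in LPD lines 1, 4, 6, 20 and 40, and 21.8, 8.30, 15.1, 22.1 and 13.8 in NPD lines 8, 15, 21, 36 and 51. In 3 LPD lines it was below every NPD line, while LPD line 4 lay among the higher NPD lines and NPD line 15 among the LPD lines. The means were 9.55 ± 5.69 and 16.2 ± 5.81 (SD, n = 5 lines each), and Bcl2 passed the filter of a mean of 10 over all lines through the NPD lines. Its log2 fold change of -0.77 ± 0.43 (SE, exact permutation p = 0.103) had a 95% interval of -1.71 to 0.16.

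These Bcl2 levels rest on few reads. Between 3.14 read equivalents in LPD line 40 and 8.69 in LPD line 20 lay behind the LPD values, and between 10.9 in NPD line 15 and 30.3 in NPD line 36 behind the NPD values. Counting alone then gives an error of 18.2% to 56.4% of the value of a line.

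The 2 lines that lay against the order of the diets for Bcl2, LPD line 4 and NPD line 15, were also the 2 with low Ddx3y. The log2 fold change was -1.24 without both, -1.04 without LPD line 4 and -0.98 without NPD line 15. Because those lines lay against the order, and Bcl2 entered the test through the NPD lines, these values are a description and support no difference. In the fit without both, Bcl2 was the 1 member of 10 at an unadjusted p under 0.05 by limma (adjusted p = 0.998), where 4.27% of the 14297 genes tested were, 1.79% being lower in LPD. Other choices made the difference smaller. It was -0.60 without LPD line 40, -0.65 without NPD line 36 or NPD line 8, and -0.44 with a pseudocount of 10 in place of 1.

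Bcl2l1 encodes BCL-XL and, by another splice site, the pro-apoptotic BCL-XS, which cannot be told apart in a value per gene. It had 739, 816, 1454, 1305 and 1011 normalized counts in LPD lines 1, 4, 6, 20 and 40, and 971, 721, 851, 674 and 870 in the NPD lines 8, 15, 21, 36 and 51. LPD lines 6, 20 and 40 lay above every NPD line, and LPD lines 1 and 4 within the NPD range. LPD exceeded NPD by a log2 fold change of 0.35 ± 0.18 (SE, exact permutation p = 0.151), and its interval ran from 0.967-fold to 1.67-fold. Without LPD line 1, the lowest LPD line, it came to 0.46 (limma p = 0.019, adjusted p = 0.83, exact permutation p = 0.071). Without LPD line 4, the next lowest, it came to 0.43 (limma p = 0.041, adjusted p = 0.944, exact permutation p = 0.095). Both lines lay against the order of the diets, so these values are a description. The fold change fell to 0.22 without LPD line 6 and to 0.26 without LPD line 20.

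Mcl1, the anti-apoptotic member with a short-lived protein, was even across the lines. It had 8496, 8994, 7850, 10203 and 8428 normalized counts in the LPD lines, in the order above, and 7998, 7981, 8572, 7607 and 8728 in the NPD lines. LPD line 20 was highest and the ranges overlapped. Its log2 fold change of 0.10 ± 0.085 (SE, exact permutation p = 0.214) had an interval of 0.945-fold to 1.22-fold.

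Neither effector passed the test. Bax, the effector that moves from the cytosol to mitochondria, had 4923, 5531, 4940, 6544 and 6253 normalized counts in the LPD lines and 5283, 5910, 6445, 5230 and 6237 in the NPD lines. LPD lines 1 and 6 lay below every NPD line and LPD line 20 above. Its log2 fold change was -0.051 ± 0.10 (SE, exact permutation p = 0.643), with an interval of 0.827-fold to 1.13-fold. Bak1, the effector that resides in the membrane, had 1368, 1479, 1642, 1647 and 1953 in the LPD lines and 1447, 1498, 1731, 1579 and 1795 in the NPD lines. The LPD lines held both the lowest and the highest value. Bak1 had a log2 fold change of 0.0014 ± 0.11 (SE, exact permutation p = 1.0), with an interval of 0.854-fold to 1.17-fold, and its sign turned under other scalings.

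**Figure D3:**
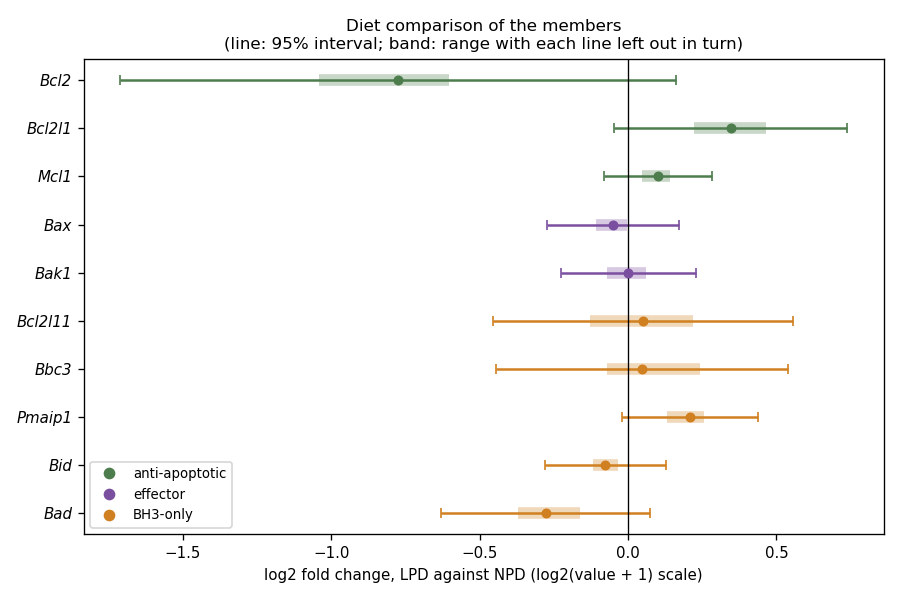
Log2 fold change of each member, LPD against NPD, on the log2(value + 1) scale (5 lines per diet); points are limma estimates, thin lines the 95% intervals, and bands the range when each line was left out in turn. All 10 intervals include 0; Bcl2 has the widest, from -1.71 to 0.16, and Mcl1 the narrowest.

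Among the BH3-only members, Bcl2l11 had the widest range over the lines, and did not pass the diet test. BIM, which it encodes, engages all anti-apoptotic proteins and is made as the isoforms EL, L and S, which a value per gene sums. Its normalized counts were 531, 758, 959, 1203 and 462 in the LPD lines and 791, 896, 615, 637 and 649 in the NPD lines. The 2 highest and the 2 lowest values were all in LPD lines, 2.60-fold apart at the ends, and the NPD lines lay between them. Between diets the log2 fold change was 0.051 ± 0.23 (SE, exact permutation p = 0.857), and the interval of 0.730-fold to 1.47-fold was wide.

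Bbc3, whose product PUMA is a known target of p53, had 1280, 1125, 536, 926 and 939 normalized counts in the LPD lines and 1132, 1230, 775, 698 and 757 in the NPD lines. LPD lines 1 and 4 and NPD lines 8 and 15 were the highest, so both diets held high and low lines. Bbc3 had a log2 fold change of 0.047 ± 0.23 (SE, exact permutation p = 0.889), with an interval of 0.735-fold to 1.45-fold.

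Pmaip1 encodes NOXA, which mainly binds MCL1. Its values were 3282, 2554, 2891, 2601 and 2790 in the LPD lines and 1970, 2323, 2584, 2598 and 2784 in the NPD lines. LPD lines 1, 6 and 40 lay above every NPD line, with LPD line 40 only just so. For Pmaip1 the log2 fold change was 0.21 ± 0.11 (SE, exact permutation p = 0.0873), or 0.26 without NPD line 51 (limma p = 0.039, adjusted p = 0.990, exact permutation p = 0.056). NPD line 51 was the highest NPD line and lay against the order of the diets, so the value without it is a description. The fold change fell to 0.13 without NPD line 8 and to 0.15 without LPD line 1.

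Bid, which joins the death receptors to mitochondria, was the steadiest member, with 605, 589, 504, 564 and 574 normalized counts in the LPD lines and 602, 649, 623, 534 and 584 in the NPD lines. LPD line 6 alone lay below the NPD range. Its log2 fold change was -0.077 ± 0.094 (SE, exact permutation p = 0.294). Bad, whose product is set by survival signalling through phosphorylation, had 212, 137, 198, 174 and 245 in the LPD lines and 217, 202, 245, 243 and 246 in the NPD lines. LPD lines 4, 6 and 20 lay below every NPD line, and LPD line 4, the shallowest, was the lowest with 47.4 read equivalents. Bad had a log2 fold change of -0.28 ± 0.16 (SE, exact permutation p = 0.0873). It was -0.37 without LPD line 40 (limma p = 0.039, adjusted p = 0.742, exact permutation p = 0.024) and -0.16 without LPD line 4. LPD line 40 was the highest LPD line and lay against the order of the diets, so the value without it is a description. With depth as a covariate the fold change was also -0.16 (adjusted p = 0.999 by limma). LPD lines 4 and 6 are among the shallower lines, but so is LPD line 40, the highest LPD line. LPD line 20, also below every NPD line, was the deepest of all at 24111814 read equivalents. Over the 10 lines Bad had r = 0.59 and rho = 0.02 with log2 depth, and the cause was not tested. Exons or introns of Bax, Bak1, Bid and Bad lie over other annotated genes (Gm45808, Ggnbp1, Bcl2l13 and Gpr137). Gm45808 is on the same strand as Bax, so strand would not separate them, and the other neighbours are on the opposite strand. The strand setting of the library is not given in the sources used here. A part of the reads of these members could therefore belong to the neighbour.

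The balance of the family was described by ratios in each line, with no test. The log2 ratio of the 7 summed pro-apoptotic to the 3 summed anti-apoptotic members, each per kilobase, was 1.65, 1.62, 1.53, 1.56 and 1.82 in LPD lines 1, 4, 6, 20 and 40. It was 1.66, 1.87, 1.83, 1.78 and 1.78 in NPD lines 8, 15, 21, 36 and 51. The means were 1.64 ± 0.11 and 1.79 ± 0.08 (SD, n = 5 lines each). In 4 LPD lines the ratio was below that of every NPD line, and LPD line 40 lay among the higher NPD lines. The mean of LPD minus that of NPD was -0.15, and -0.10 with sums of normalized counts in place of levels per kilobase. The size of this difference thus depends on the length correction. Most of this ratio is Bax over Mcl1, whose log2 ratio per kilobase was 1.33 ± 0.13 in LPD and 1.49 ± 0.08 in NPD lines. The ratio of Bax to Bcl2 had the opposite order, with a log2 ratio of 9.20 ± 0.78 in LPD and 8.47 ± 0.63 in NPD lines, and ranges of 8.11 to 10.0 and 7.83 to 9.31 that overlapped.

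Members were also compared with each other across the 10 lines, as 45 pairs on the log2(value + 1) scale, and 0 pairs passed adjustment at 0.1. The closest pair was Bbc3 and Bid, with Pearson's r = 0.77 (permutation p = 0.0095, adjusted p = 0.427) and Spearman's rho = 0.73 (permutation p = 0.021, adjusted p = 0.606) over 10 lines. Without LPD lines 1 and 6, the lines farthest from the median of Bbc3, r was 0.58, and within the diets it was 0.86 after centring. Bbc3 had its 4 highest values in LPD lines 1 and 4 and NPD lines 8 and 15, where Bid had 3 of its 4 highest. Whether r follows this division of the lines was not tested. The effectors Bax and Bak1 had r = 0.66 (permutation p = 0.040, adjusted p = 0.721) and rho = 0.70 (permutation p = 0.029, adjusted p = 0.606), with r = 0.69 without LPD lines 1 and 6. The lowest r was -0.56 for Bcl2l11 and Bad (permutation p = 0.095, adjusted p = 0.721), with rho = -0.66 (permutation p = 0.044, adjusted p = 0.606), and r was -0.39 without LPD lines 20 and 40. The median r of the pairs was -0.046.

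**Figure D4:**
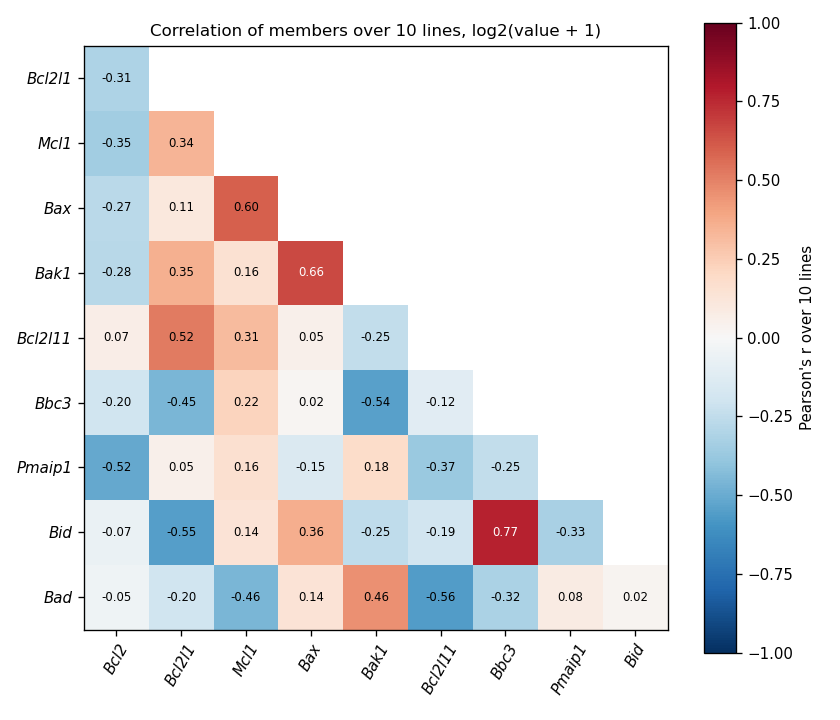
Pearson's r of each pair of members over 10 ESC lines on the log2(value + 1) scale (red positive, blue negative, scale from -1 to 1). The strongest cells are Bbc3 with Bid at 0.77 and Bax with Bak1 at 0.66; none of the 45 pairs passed adjustment.

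The members with the largest spread within diets were Bcl2 and Bcl2l11, with an SD of 0.62 and 0.44 on the log2 scale. The genes most like Bcl2 over the 10 lines, of 10455 with a mean of at least 100, were Sec22c (r = 0.90), Rexo4 (r = 0.87) and Itch (r = 0.87). Those most like Bcl2l11, of 10454, were Olfr1459 (r = 0.94), Cul4b (r = 0.94) and Ogdh (r = 0.93). They were picked as the highest of many, so these values are a description.

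The other genes of the pathway gave a share of calls near the background. Of 59 tested genes in 6 lists, 3 reached an unadjusted p under 0.05, which is 5.08% beside 5.02% of all genes, and 0 passed adjustment. They were Cflar, Sesn2 and Trib3.

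Cflar encodes c-FLIP, which keeps caspase 8 in check at death receptors. It had 128, 114, 127, 138 and 136 normalized counts in LPD lines 1, 4, 6, 20 and 40, and 160, 156, 170, 194 and 159 in NPD lines 8, 15, 21, 36 and 51. Every LPD line was below every NPD line. The log2 fold change was -0.38 ± 0.14 (SE, adjusted p = 0.845 by limma), with an exact permutation p of 0.00794, the smallest that assigning 5 of 10 lines allows. Among all genes tested 0.495% had every LPD line below every NPD line. The limma p of Cflar, 0.015, was 0.093 with depth as a covariate.

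Of the 16 upstream regulators, 1 passed an unadjusted p of 0.05. Trib3, a stress-induced pseudokinase, had a mean of 1105 ± 199 in LPD and 848 ± 189 in NPD lines (SD, n = 5 each), with a log2 fold change of 0.39 ± 0.16 (SE, exact permutation p = 0.0794). LPD lines 6 and 20 were the only 2 above all NPD lines, and the limma p was over 0.05 in 6 of the 10 fits that left out 1 line. Ddit3, which encodes the stress factor CHOP, had means of 243 ± 30.4 and 196 ± 62.2 and a log2 fold change of 0.35 ± 0.19 (exact permutation p = 0.127). Without NPD line 8, the highest of all lines at 305 normalized counts, it was 0.52 (limma p = 0.0045, adjusted p = 0.842, exact permutation p = 0.016). NPD line 8 lay against the order of the diets, so that value is a description. Without NPD line 15 the fold change of Ddit3 was 0.26.

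Of the 5 p53 targets outside the family, 1 reached an unadjusted p under 0.05 by limma. Sesn2, which encodes a stress-induced inhibitor of mTORC1 signalling, had 3857, 4171, 3245, 3963 and 2391 normalized counts in the LPD lines and 2995, 2437, 2540, 2825 and 2529 in the NPD lines. In 4 LPD lines it was above every NPD line, and LPD line 40 was below them all. The log2 fold change was 0.38 ± 0.14 (SE, exact permutation p = 0.0556), and 0.28 (limma p = 0.095) without LPD line 4 and NPD line 15. Without LPD line 40, the LPD line against the order, it was 0.51, with an adjusted p of 0.094 by limma. In that fit 40 of all genes had an adjusted p under 0.1, beside 0 in the main fit, so this value is a description. Zmat3, an RNA-binding target of p53, had means of 2453 ± 484 in LPD and 2838 ± 630 in NPD lines.

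None of the 10 other Bcl2 family genes tested passed. Hrk, a BH3-only gene, came nearest, with means of 185 ± 31.2 and 143 ± 37.5 and a log2 fold change of 0.39 ± 0.19 (SE, exact permutation p = 0.0873), followed by Bcl2l12 with 352 ± 16.4 and 403 ± 51.5. Without NPD line 8, the highest NPD line, Hrk came to 0.53 (limma p = 0.011, adjusted p = 0.971, exact permutation p = 0.00794). NPD line 8 lay against the order of the diets and the other lines do not overlap, so that value is a description. Without NPD line 51 Hrk was at 0.30. Bcl2l2, which encodes the anti-apoptotic BCL-W, lay between 405 and 727 normalized counts over the 10 lines, so it stood well above Bcl2. Gm20521 lies over Bcl2l2 on the same strand, so a part of these reads could belong to that gene. Bcl2l10 and Bcl2l15 were under the filter, and the Bcl2a1 genes were not analysed here.

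Downstream of the mitochondria, 0 of 10 genes of release and the apoptosome and 0 of 8 caspases and substrates passed. Nearest were Htra2, a released protease, at 565 ± 84.1 in LPD and 622 ± 32.5 in NPD lines, and Mtch2, a mitochondrial partner of BID, at 1811 ± 239 and 1652 ± 152, whose values were identical to those of another gene in the table. Dffb, the nuclease that cuts DNA in apoptosis, had means of 232 ± 40.2 and 220 ± 32.1. Of the 10 inhibitors of apoptosis and brakes on death receptors, only Cflar passed, and Birc2, an inhibitor of apoptosis protein, had means of 712 ± 92.0 and 803 ± 47.1. Its log2 fold change was -0.18 (exact permutation p = 0.103), or -0.24 (limma p = 0.035, adjusted p = 0.853, exact permutation p = 0.032) without LPD line 1. LPD line 1 was the highest LPD line and lay against the order of the diets, so the value without it is a description.

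**Figure D5:**
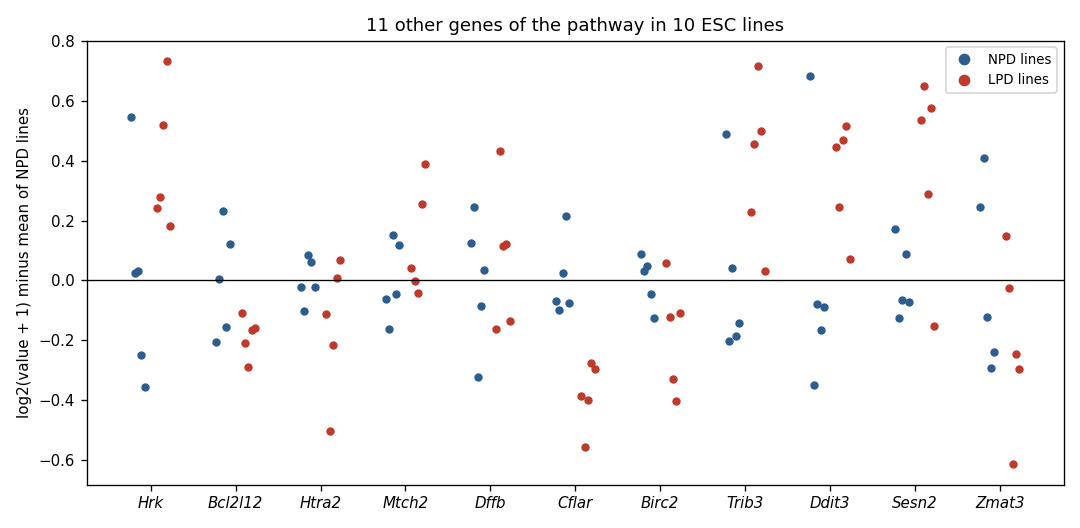
Level of 11 other genes of the pathway in each ESC line as log2(value + 1) minus the mean of the 5 NPD lines (blue NPD, red LPD; 1 point per line). Cflar is the only gene shown whose 5 LPD points all lie below its 5 NPD points; the diets overlap for the other 10 genes.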

How the data were processed

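RNA sequencing of 10 mouse ESC lines, 5 LPD and 5 NPD, was analysed, with groups and line numbers from the sample titles. The authors made cDNA from oligo(dT)-selected mRNA, trimmed reads with cutadapt, quantified GRCm38 transcripts with Salmon and tested transcripts with Sleuth, for which the submitters' processing notes give version 0.30.0. They deposited 1 table with a normalized signal per gene and line, which is an estimated count scaled, going by the table's name, with DESeq2, and how transcripts were summed to genes is not given in the sources used here. Low values were whole multiples of 1 read in only 68.0% to 74.1% of cases over all genes (tolerance 0.15), so whole reads were not recovered and no count test was used. Depth is the total divided by the value of 1 read. The read errors cover counting only.

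Genes with a mean of at least 10 were tested as log2(value + 1) with limma 3.58.1 in R 4.3.3 (eBayes with a trend, Benjamini-Hochberg adjustment), 2-sided, as were single genes by exact permutation of the lines between diets. Fold changes are on this scale, which understates those of low genes. Correlations used 100000 permutations. The test was tried on simulated data. Other steps ran in Python 3.11.15 (pandas 2.3.3, numpy 2.4.6; figures in matplotlib 3.10.9). Positions, lengths and coding sequences are from GENCODE M21 on GRCm38, matched for 19918 genes.

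The members and gene lists were chosen with earlier results of these data known. Named are all members; the 2 genes of smallest p in each of the 6 pathway lists and any further one under 0.05; Ddx3y, Pou5f1, Nanog and Sox2; and the 3 genes most correlated with each of the 2 members of largest SD within diets. Of the genes this rule covers, 1 is not reported here. Bcl2l2, Lum and the genes of the closing observations were named after their values were seen. Alternatives were pseudocounts of 0.1, 0.5 and 10, a minimum mean of 100 or none, quantile normalization or equal totals, limma with array weights, robust or without the trend, depth as a covariate, each line left out, and both lines with low Ddx3y left out. Leaving out LPD lines 4, 6 and 40, the merged exon lengths and sums of normalized counts were chosen after seeing the data.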

Additional observations from a re-analysis of the deposited data

Results flagged for a closer look

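Over 44 groups of 5 lines, for the 10 members and 12 other genes in each diet, 1 value stood far from the others of its diet. Ddit3 had 304.9 normalized counts in NPD line 8, where the other 4 NPD lines had 148.2 to 179.3, and the gap was 0.801 of the range (critical value 0.71). Chance marks about 1 group in 20. No value of the 10 members was marked.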

How the results depend on the processing

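The number of all genes at an adjusted p under 0.1 was 0, but 1 with array weights, 6 without LPD lines 4, 6 and 40, and 0 to 40 when each line was left out, the 40 being without LPD line 40. The number of members at an unadjusted p under 0.05 was 0, but 1 (Bcl2) with depth as a covariate and 1 (Bcl2) without LPD line 4 and NPD line 15, and 0 to 2 when each line was left out; the 2 were Bcl2 and Bcl2l1 without LPD line 4. The number of genes at an unadjusted p under 0.05 stayed between 549 and 1021, beside 721. The 1021 came from the fit without a minimum mean, where more genes were tested, so the counts cannot be compared directly. With depth as a covariate the log2 fold change of Bcl2 was -1.20 (adjusted p = 0.999 by limma) and that of Bad -0.16, beside -0.77 and -0.28. That of Bak1, near 0, turned to -0.033 with the same total, -0.024 with quantile normalization, -0.061 with array weights, -0.017 with depth as a covariate and -0.096 without LPD lines 4, 6 and 40; that of Dffb turned to -0.066 with depth as a covariate and -0.021 without LPD lines 4, 6 and 40. With each line left out, Bak1 ranged from -0.069 to 0.059, Bbc3 from -0.071 to 0.24, Bcl2l11 from -0.13 to 0.22 and Dffb from -0.015 to 0.14. The cause was not tested. Bcl2 rested on the fewest reads of the members, 3.14 to 30.3 read equivalents in a line. No paired analysis was possible because the line numbers of the diets differ and no label pairs the lines.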

Other observations

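The lines with the most Bbc3 transcript were also those with the most transcript of 4 of the 5 listed p53 targets outside the family, whichever the diet. Mdm2, the ubiquitin ligase of p53, had 3950, 3656, 3857 and 3714 normalized counts in LPD lines 1 and 4 and NPD lines 8 and 15, and 2439 to 3130 in the other 6 lines. Cdkn1a, the cell cycle inhibitor p21, had 2312, 1715, 1455 and 2394 in the same 4 lines and 999 to 1179 in the other 6. Zmat3 (2739 to 3697 against 1818 to 2560) and Ccng1 (3714 to 4443 against 2739 to 3685) also had their 4 highest values there, while Sesn2 had 2 of its 4 highest. Bbc3 itself was at 1125 to 1280 in these lines and at 536 to 939 in the others. Other members did not all share this order. Bid had 3 of its 4 highest values there. Pmaip1 had 3282, 2554, 1970 and 2323 in LPD lines 1 and 4 and NPD lines 8 and 15, and 2584 to 2891 in the others. Bax had 4923, 5531, 5283 and 5910 in the same 4 lines, and 4940 to 6544 in the others.

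Apaf1, the scaffold of the apoptosome, lay at 1198 to 1457 in the same 4 lines and at 821 to 1111 in the others. Bak1 had its 4 lowest values in these lines, 1368 to 1498 against 1578 to 1953, and Trp53 had 3 of its 4 lowest. Because the lines fall apart in this way, no correlation of Bbc3 with the p53 targets over all 10 is given. Within the other 6 lines Bbc3 had r = 0.53 with Mdm2 (exact permutation p = 0.269, rho = 0.60, exact permutation p = 0.242) and r = 0.73 with Zmat3 (exact permutation p = 0.117, rho = 0.26, exact permutation p = 0.658). With Cdkn1a r was 0.04, with Sesn2 -0.09 and with Ccng1 -0.35. None of the 5 targets passed adjustment (adjusted p of at least 0.583). The 6 lines were set apart by Mdm2 and Cdkn1a and also lack the 4 highest values of Bbc3, Zmat3 and Ccng1. With that narrowed range they cannot show whether the genes vary together, so these values are a description. The 4 lines include both lines with low Ddx3y and were picked out by these values, so no test between them and the others was made.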
